A study of Mus musculus with 9 samples.

Results

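The genes described here are 39 mouse genes of the interferon response and of antigen presentation by MHC class I, chosen by symbol from the 55704 genes of the expression table. All 39 were found in it. RNA was sequenced from cultured neural stem cells (NSCs) that came from the subventricular zone of C57BL/6 mice aged 8 to 9 weeks, with 2 females and 2 males for an isolation, and that had been passaged at least 3 times. The bFGF/EGF group was kept in 20 ng/ml each of the growth factors bFGF and EGF and was harvested at day 0, after 16 to 18 h of adherent culture. In the bFGF/BMP4 group EGF was exchanged for 20 ng/ml BMP4, and in the BMP4 group both growth factors were exchanged for 20 ng/ml BMP4, and these cells were harvested at day 6. Each group had 3 libraries, described as biological replicates. Both BMP4 groups spent 6 more days in culture than the bFGF/EGF group, so time and medium cannot be told apart in a comparison with it, and both comparisons with bFGF/EGF used the same 3 control libraries.

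Interferons are secreted proteins that bind receptors on the cell surface. The receptors of type I interferons activate the kinases JAK1 and TYK2, and the signal reaches the nucleus in a complex with the subunits STAT2 and IRF9, which binds interferon-stimulated response elements (ISRE) in promoters. Interferon gamma acts through another promoter element, the gamma-activated site (GAS). The genes switched on by either route include antiviral proteins, guanylate-binding proteins and the parts of the MHC class I pathway, in which the TAP transporter and tapasin load peptides onto a heavy chain paired with beta-2-microglobulin for display to cytotoxic T cells. Stem cells are known to express some of these genes without added interferon.

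The libraries held 15894592 to 17422753 fragments on genes, rebuilt from the deposited FPKM values (fragments divided by transcript length and library size). The BMP4 library of replicate 2 stood apart, with FPKM values that summed to 326302, compared with 256230 to 294652 in the other 8 libraries. Of 8 NSC markers (Sox2, Nes, Prom1, Slc1a3, Fabp7, Sox9, Msi1 and Vim), all 8 had a mean of at least 0.1 FPKM, but their levels differed between the groups. That minimum is low, and no list of astrocyte markers was used, so these levels cannot tell NSCs from astrocytes. Compared with bFGF/EGF, 4 of the 8 NSC markers were called lower in bFGF/BMP4 (14.1% of all genes tested). In BMP4, 2 were called higher (21.3%) and 1 lower (15.4%) than in bFGF/EGF, while 5 were higher than in bFGF/BMP4 (8.41%). Nes fell from 151 FPKM in bFGF/EGF to 3.55 in bFGF/BMP4 and 15.8 in BMP4, and the 8 had sums of 1716 to 1824 FPKM in bFGF/EGF, 690 to 792 in bFGF/BMP4 and 1527 to 1970 in BMP4. Of 16 markers of microglia and macrophages, which express many interferon-induced genes, 12 had a mean under 0.1 FPKM, and Itgam, C1qa, C1qb, C1qc and Tyrobp were at 0 in all 9 libraries. Their summed level was 1.75 to 4.85 FPKM in bFGF/EGF, 0.775 to 1.10 in bFGF/BMP4 and 2.53 to 3.99 in BMP4, most of it from Cd68, P2ry12 and Tmem119. The level of Itgam is uncertain, since it shares 67.4% of its exon bases with Gm49368 on the same strand, and the division of those reads is not known. Of 11 markers of vascular and mural cells 8 were under 0.1 FPKM and Cldn5 was at 0 throughout, while the sum was 0.236 to 0.369, 1.79 to 2.71 and 3.99 to 5.57 FPKM in the same order, mostly Kdr and Rgs5. The part of these other cell types in the results was not tested, and in bulk RNA fewer cells that express a gene and less RNA of it per cell cannot be told apart.

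Most of the interferon and MHC class I genes had their highest mean level in the BMP4 group. Of the 39 genes, 27 had the highest mean there, 5 in bFGF/BMP4 and 7 in bFGF/EGF. The matching share over all genes was not computed, and the count includes genes with means too low to be tested. A gene was called higher or lower when limma's moderated test on log2(FPKM + 0.1), fitted to all 9 libraries and adjusted by Benjamini-Hochberg over the 20207 genes with a mean of at least 0.1 FPKM, gave an adjusted p-value not above 0.05 together with a 2-fold difference or more. Tested were 33 of the 39, which excludes Nlrc5, Irf5, Irf8, Oasl2, Xaf1 and Iigp1, all with too low a mean. Levels ranged widely, since 7 of the 39 had a mean of at least 10 FPKM over all libraries and 15 a mean under 1 FPKM.

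In bFGF/BMP4 compared with bFGF/EGF, 12 of the 33 were higher, compared with 16.5% of all genes tested, and 3 were lower, compared with 14.1%. In BMP4 compared with bFGF/EGF, 18 were higher, with 21.3% of all genes called in that direction, and 3 were lower, with 15.4%. Between BMP4 and bFGF/BMP4, 10 were higher in BMP4 (8.41% of all genes) and 1 was lower (5.14%). By the adjusted p alone the members higher and lower numbered 16 and 4, 20 and 4, and 13 and 1 in these comparisons, with 25.0% and 23.6%, 29.6% and 25.3%, and 12.2% and 8.89% of all genes. The median log2 fold change of the 33 was 0.45, 1.49 and 0.50, beside medians over all genes tested of 0.06, 0.10 and 0.00. Of the 33 genes 12 were higher than in bFGF/EGF in both BMP4 groups, 2 were lower in both, 5 were called higher and 1 lower only in BMP4, and 1, Gbp2, had opposite calls. The shares of such joint calls over all genes were not computed, and both comparisons with bFGF/EGF used the same control libraries.

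**Figure D1:**
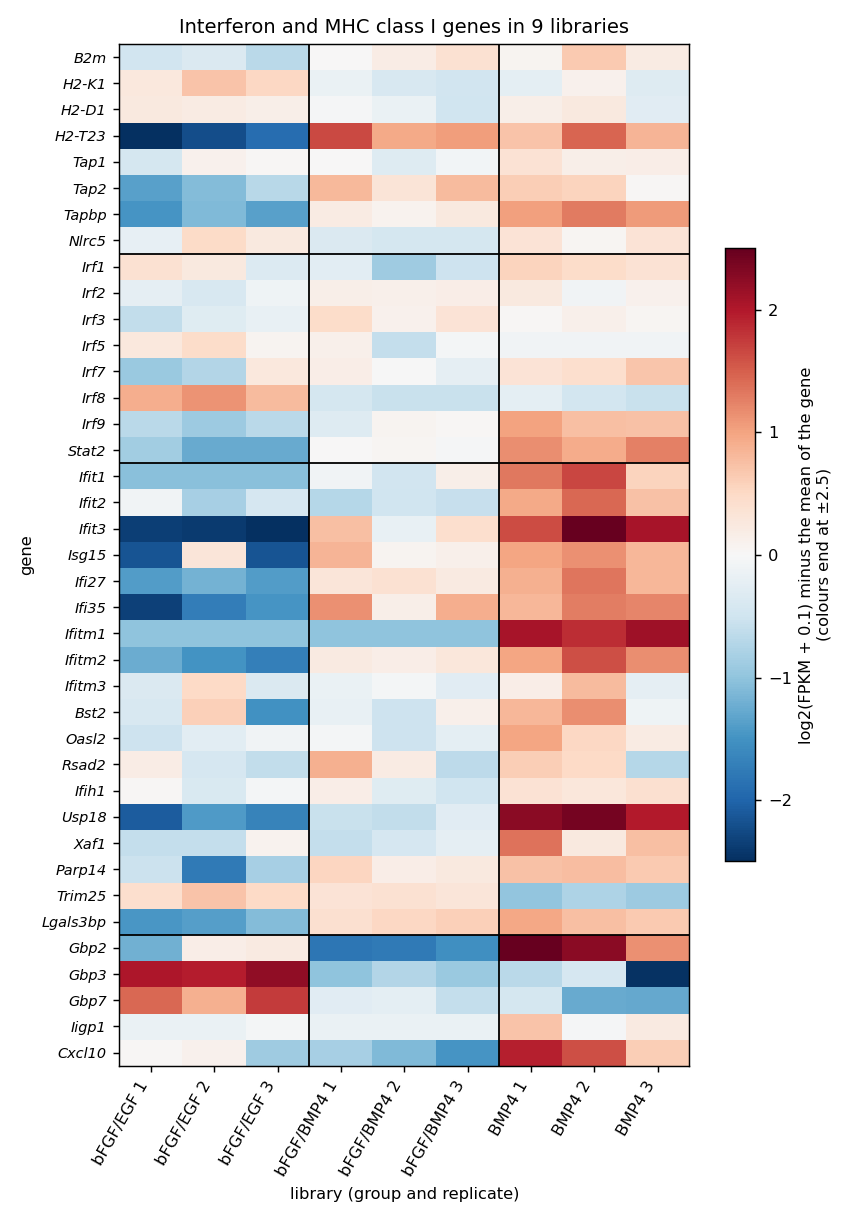
Colour gives log2(FPKM + 0.1) of each of the 39 genes (rows, in 4 groups by role from top to bottom: class I presentation, transcription factors, effectors, and GTPases with Cxcl10) in each of the 9 libraries (columns), minus the mean of that gene over the 9 libraries. Ifit3, H2-T23, Ifi35 and Lgals3bp are below their means in all 3 bFGF/EGF libraries, Usp18 and Ifitm1 are above theirs in the 3 BMP4 libraries, and Gbp3 and Gbp7 run the other way.

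Promoter sequence was at hand for 33 of the 39 genes (RefSeq, build GRCm38.p6, from 250 bases before the start site to 50 after it). The ISRE letters, GAAA and again GAAA with 2 bases of any kind between them, were found on either strand in 16 of the 33, which is 48.5%, compared with 3.40% of the 11738 tested genes with a promoter and 3.99% of all 27025 genes in the reference. The 16 held 23 matches, of which 17 began within 200 bases before the start site. The letters TTCNNNGAA of the GAS, in which N is any base, were found in 8 of the 33, or 24.2%, compared with 8.07% of tested genes, and an ISRE match overlapped a GAS match in Ifitm3 and Bst2. Genes with and without the ISRE letters both differed in level, since 10 of the 18 members with a promoter that were called in at least 1 comparison had a match. The members were chosen as genes of the interferon response and MHC class I, so the motif shares describe the list and not its regulation in these cells. The following stretches, from 250 bases before the start site to 30 after it on the gene's own strand, are those of the 6 tested genes with a match and the highest mean FPKM. Capitals mark the ISRE match, which reads TTTC, 2 bases, TTTC where it lies on the opposite strand.
B2m, chr2:122147437-122147716, plus strand: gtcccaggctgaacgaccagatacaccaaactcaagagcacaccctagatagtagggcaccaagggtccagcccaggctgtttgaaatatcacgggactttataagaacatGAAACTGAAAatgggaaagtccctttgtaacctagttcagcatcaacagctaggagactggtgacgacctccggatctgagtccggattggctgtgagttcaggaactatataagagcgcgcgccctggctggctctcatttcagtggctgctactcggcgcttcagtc
Ifitm2, chr7:140955932-140956211, minus strand: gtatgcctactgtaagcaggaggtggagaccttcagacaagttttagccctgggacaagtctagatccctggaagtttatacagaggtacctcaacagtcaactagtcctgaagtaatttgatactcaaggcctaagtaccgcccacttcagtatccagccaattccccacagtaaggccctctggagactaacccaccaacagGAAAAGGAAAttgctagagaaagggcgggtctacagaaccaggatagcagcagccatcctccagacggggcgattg
Ifitm3, chr7:141010715-141010994, minus strand: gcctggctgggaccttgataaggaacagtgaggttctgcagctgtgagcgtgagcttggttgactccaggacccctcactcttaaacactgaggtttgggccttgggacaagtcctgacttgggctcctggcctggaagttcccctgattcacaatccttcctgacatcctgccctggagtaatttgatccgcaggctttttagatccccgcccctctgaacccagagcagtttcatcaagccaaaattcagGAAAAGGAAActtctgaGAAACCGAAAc
Ifit3, chr19:34583279-34583558, plus strand: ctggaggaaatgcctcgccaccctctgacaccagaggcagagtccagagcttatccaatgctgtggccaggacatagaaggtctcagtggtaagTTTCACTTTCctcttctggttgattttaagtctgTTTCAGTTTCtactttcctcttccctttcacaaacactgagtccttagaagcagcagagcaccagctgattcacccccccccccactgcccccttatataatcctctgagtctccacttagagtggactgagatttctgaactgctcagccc
Stat2, chr10:128270248-128270527, plus strand: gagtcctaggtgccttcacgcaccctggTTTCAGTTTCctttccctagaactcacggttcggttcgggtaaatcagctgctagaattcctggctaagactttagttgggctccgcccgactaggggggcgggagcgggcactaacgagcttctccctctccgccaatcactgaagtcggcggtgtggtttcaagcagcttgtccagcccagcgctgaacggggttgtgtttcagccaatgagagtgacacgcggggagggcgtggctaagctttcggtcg
Irf2, chr8:46739495-46739774, plus strand: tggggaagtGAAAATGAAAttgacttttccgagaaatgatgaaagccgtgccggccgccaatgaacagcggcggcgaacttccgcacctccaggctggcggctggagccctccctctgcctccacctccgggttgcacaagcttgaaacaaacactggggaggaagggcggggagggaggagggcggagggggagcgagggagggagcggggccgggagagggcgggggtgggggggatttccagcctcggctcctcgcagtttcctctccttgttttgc
The match began 139 bases before the start site in B2m and 46 bases before it in Ifitm2, while Ifit3 had matches at -156 and -122 and Ifitm3 had them after its start site, at 3 and 20. Ifitm2 and Ifit3 were called higher in both BMP4 groups, whereas Ifitm3 and Irf2, which also carry the letters, were not called in any comparison.

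Among the class I genes, Tap2 and Tapbp of the peptide-loading genes and the nonclassical heavy chain gene H2-T23 were higher in both BMP4 groups, whereas Tap1 and the classical heavy chains were not called. Of 7 tested, 3 (H2-T23, Tap2 and Tapbp) were called higher in bFGF/BMP4 than in bFGF/EGF, beside 16.5% of all genes tested. The same 3 were called higher in BMP4 (21.3% of all genes), also compared with bFGF/EGF. None was called between the BMP4 groups, where 1 of the 7 passed the adjusted p alone. H2-T23, which encodes the nonclassical heavy chain Qa-1 that is recognized by NKG2A receptors, had 0.204, 0.285 and 0.372 FPKM in the libraries without BMP4, compared with 5.47, 3.34 and 3.58 in bFGF/BMP4 and with 2.79, 4.79 and 3.11 in BMP4. All 6 libraries with BMP4 were above the 3 without, and the BMP4 groups overlapped. The log2 fold change was 3.44 ± 0.28 (SE, adjusted p = 7.3e-06) in bFGF/BMP4 and 3.23 ± 0.28 (adjusted p = 7.1e-06) in BMP4. Reads that match more than a single gene are a limit here, since 13.1% of the 50-base stretches of H2-T23 transcripts also occur in other genes.

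Tap2, a subunit of the peptide transporter of the endoplasmic reticulum, had 0.902, 1.12 and 1.50 FPKM in bFGF/EGF, 4.43, 3.10 and 4.39 in bFGF/BMP4 and 3.86, 3.71 and 2.52 in BMP4. Every BMP4-treated library again lay above the bFGF/EGF libraries, with log2 fold changes of 1.69 ± 0.24 (adjusted p = 0.00029) and 1.45 ± 0.24 (adjusted p = 0.00062). Its partner subunit Tap1 ranged from 1.72 to 3.04 FPKM over the 9 libraries and was not called. Tapbp, which encodes tapasin, the protein that bridges the transporter and the heavy chain, was at 3.65, 4.74 and 3.93 FPKM in bFGF/EGF, 11.9, 11.0 and 12.1 in bFGF/BMP4 and 21.2, 25.4 and 21.5 in BMP4. No groups overlapped, with the lowest values in bFGF/EGF and the highest in BMP4. The log2 fold change was 1.49 ± 0.13 (adjusted p = 1.2e-05) and 2.44 ± 0.13 (adjusted p = 3.7e-07) against bFGF/EGF, and 0.95 ± 0.13 between the BMP4 groups, where the adjusted p of 0.00059 passed and the fold did not. Tapbp shares 20.9% of its exon bases with Zbtb22 on the same strand, a gene with a mean of 15.2 FPKM, and the division of those reads is not known.

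B2m, the light chain shared by class I molecules, was the most abundant of the 39 genes, with 42.7, 46.2 and 37.3 FPKM in bFGF/EGF, 59.9, 67.2 and 77.3 in bFGF/BMP4 and 62.5, 94.0 and 68.9 in BMP4. The bFGF/EGF libraries were the 3 lowest, but the difference stayed under 2-fold, with a log2 fold change of 0.69 ± 0.17 (adjusted p = 0.0070) in bFGF/BMP4 and 0.82 ± 0.17 (adjusted p = 0.0023) in BMP4. The classical heavy chain gene H2-K1 went the other way, at 19.1, 25.8 and 22.7 FPKM in bFGF/EGF, 14.1, 11.9 and 11.3 in bFGF/BMP4 and 13.3, 17.0 and 12.5 in BMP4. Its bFGF/EGF libraries were the 3 highest, with log2 fold changes of -0.85 ± 0.16 (adjusted p = 0.0015) and -0.66 ± 0.16 (adjusted p = 0.0057), also under 2-fold. H2-D1, the other classical heavy chain of this strain, was at 11.7, 11.5 and 11.1 FPKM in bFGF/EGF, 9.70, 8.85 and 7.01 in bFGF/BMP4 and 11.0, 11.7 and 8.13 in BMP4, with overlapping values in bFGF/EGF and BMP4 and log2 fold changes of -0.43 ± 0.16 (adjusted p = 0.052) and -0.17 ± 0.16 (adjusted p = 0.41). H2-K1 and H2-D1 share 6.23% of the 50-base stretches of H2-K1 with each other, so their levels are less certain than that of B2m. Nlrc5, the transactivator of class I genes, did not exceed 0.104 FPKM in any library, with 1 to 14 fragments, and was not tested.

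**Figure D2:**
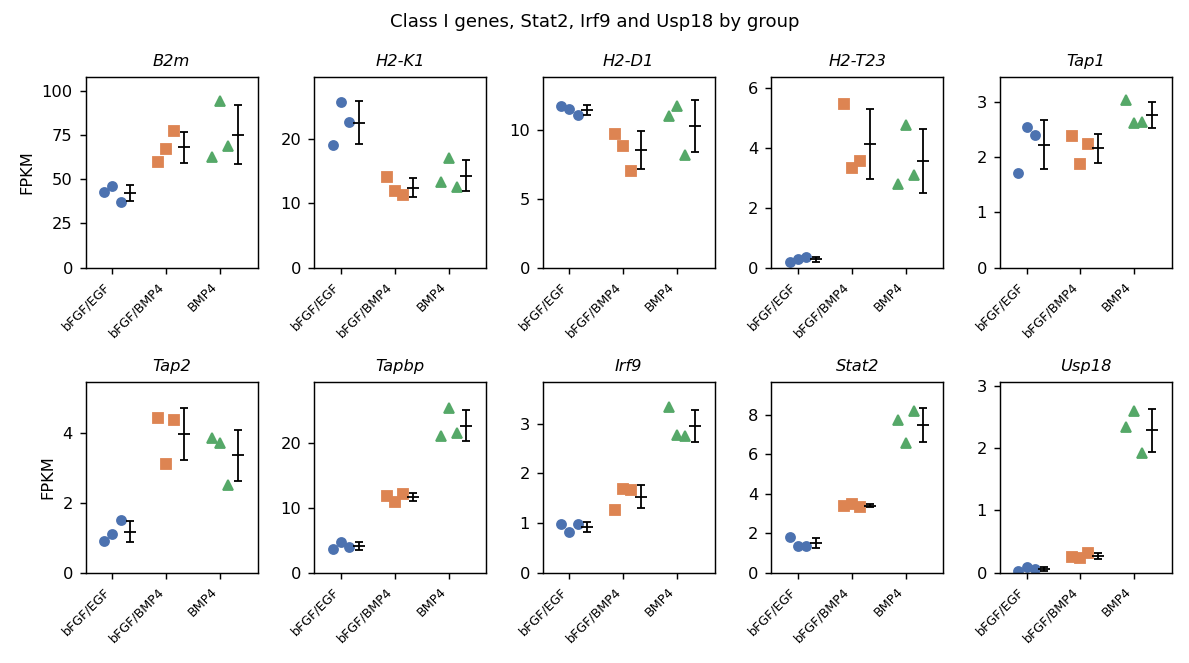
FPKM (vertical axes, each from 0) of 10 genes in the 3 groups, with points for the 3 libraries of each group and the mean ± SD beside them. H2-T23, Tap2, Tapbp, Irf9, Stat2 and Usp18 sit lowest in bFGF/EGF, H2-K1 sits highest there, and Tapbp, Stat2 and Usp18 separate all 3 groups.

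Of the interferon transcription factors, the subunits Stat2 and Irf9 of the ISRE-binding complex were highest in BMP4, and Irf8 was highest in bFGF/EGF. Of 6 tested, 1 was higher in bFGF/BMP4 (16.5% of all genes tested) and 2 in BMP4 (21.3%) than in bFGF/EGF. In BMP4 compared with bFGF/BMP4, 2 were higher (8.41%), and none was lower in any comparison. Stat2 was at 1.82, 1.36 and 1.37 FPKM in bFGF/EGF, 3.39, 3.49 and 3.34 in bFGF/BMP4 and 7.74, 6.56 and 8.22 in BMP4. The 3 groups did not overlap and were each about 2-fold apart, with log2 fold changes of 1.13 ± 0.16 (adjusted p = 0.00024) in bFGF/BMP4 and 2.24 ± 0.16 (adjusted p = 2.0e-06) in BMP4 against bFGF/EGF, and 1.11 ± 0.16 (adjusted p = 0.00074) between the latter groups. The call in bFGF/BMP4 was lost after quantile normalization (0.996) and with a pseudocount of 1 (0.82), and that between the BMP4 groups with a pseudocount of 1 (0.94). Irf9, the DNA-binding subunit, was at 0.972, 0.810 and 0.977 FPKM in bFGF/EGF, 1.26, 1.68 and 1.65 in bFGF/BMP4 and 3.33, 2.77 and 2.75 in BMP4, in the same order and without overlap. It was called only in BMP4 against bFGF/EGF (1.58 ± 0.19, adjusted p = 6.4e-05), while the other comparisons gave 0.67 ± 0.19 (adjusted p = 0.014) and 0.91 ± 0.19 (adjusted p = 0.0067), under 2-fold.

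Irf1, an activator downstream of interferon gamma, was at 1.55, 1.42 and 0.911 FPKM in bFGF/EGF, 0.955, 0.590 and 0.787 in bFGF/BMP4 and 1.78, 1.65 and 1.54 in BMP4. The 3 BMP4 libraries lay above all bFGF/BMP4 libraries, while bFGF/EGF overlapped both. The only call was BMP4 against bFGF/BMP4, with a log2 fold change of 1.02 ± 0.25 (adjusted p = 0.016), and it was lost without bFGF/BMP4 replicate 2 (0.86), without BMP4 replicate 1 (0.97), and on the TPM scale (0.95) or after quantile normalization (0.94), where the fold fell just short of 2. Irf2, which counteracts Irf1 at the same sites, was at 2.73 to 3.37 FPKM in bFGF/EGF and at 3.40 to 4.29 FPKM in the BMP4-treated libraries, with log2 fold changes of 0.39 (adjusted p = 0.045) and 0.33 (adjusted p = 0.078). Irf3, the factor activated by nucleic acid sensors, was at 4.89 to 6.54 FPKM in bFGF/EGF, 8.12 to 10.3 in bFGF/BMP4 and 7.64 to 8.14 in BMP4, higher than in bFGF/EGF by 0.67 (adjusted p = 0.0032) and 0.43 (adjusted p = 0.026) on the log2 scale, without reaching 2-fold.

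Irf7, which amplifies the interferon response, was near the detection limit with 0.0156, 0.0335 and 0.165 FPKM in bFGF/EGF, 0.148, 0.121 and 0.0900 in bFGF/BMP4 and 0.179, 0.196 and 0.257 in BMP4. That is 1 to 16 fragments a library, and its log2 fold change of 0.95 ± 0.41 in BMP4 against bFGF/EGF did not pass (adjusted p = 0.075), although it did by limma-voom on fragment numbers (1.89) and without bFGF/EGF replicate 3 (1.32). Irf8, best known from myeloid cells, was listed at 0.200, 0.251 and 0.176 FPKM in the bFGF/EGF libraries and at 0.00859 to 0.0349 FPKM in the other 6. Its 22 to 28 fragments in each bFGF/EGF library thus stood against 1 to 4 elsewhere, but its mean over the 9 libraries was below the minimum and it was not tested. Irf5, another myeloid factor, had 0 to 5 fragments a library and was not tested either.

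The interferon-induced effectors, which carry out the antiviral functions, made up 16 of the 33 tested genes and held most of the calls. Of the 16, 8 were higher and none lower in bFGF/BMP4 than in bFGF/EGF, beside 16.5% and 14.1% of all genes tested. In BMP4, 11 were higher (21.3% of all genes) and 1 lower (15.4%), also compared with bFGF/EGF. Between BMP4 and bFGF/BMP4, 6 were higher in BMP4 (8.41%) and 1 was lower (5.14%). The median log2 fold change of the 16 was 1.07 in bFGF/BMP4 and 2.16 in BMP4 (0.83 and 2.10 where a gene at 0 in a group enters with its lower bound).

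The Ifit genes encode proteins that bind viral RNA. Ifit3 was at 0.303, 0.290 and 0.195 FPKM in bFGF/EGF, 3.35, 1.72 and 2.65 in bFGF/BMP4 and 6.25, 15.2 and 8.51 in BMP4. The groups did not overlap, and within BMP4 replicate 2 was the highest library. The log2 fold change was 2.85 ± 0.34 (adjusted p = 8.6e-05) in bFGF/BMP4 and 4.71 ± 0.34 (adjusted p = 2.3e-06) in BMP4, and 1.87 ± 0.34 (adjusted p = 0.0031) between them. Of the 50-base stretches of Ifit3, 31.5% also occur in its neighbour Ifit3b, so the split of reads between the pair is uncertain. Ifit2 showed a different pattern, with 5.68, 3.38 and 4.54 FPKM in bFGF/EGF, 3.66, 4.25 and 4.05 in bFGF/BMP4 and 11.9, 16.7 and 10.2 in BMP4. Only the BMP4 libraries stood out, by a log2 fold change of 1.49 ± 0.22 (adjusted p = 0.00026) against bFGF/EGF and 1.64 ± 0.22 (adjusted p = 0.00050) against bFGF/BMP4, while bFGF/BMP4 overlapped bFGF/EGF (-0.15 ± 0.22). Ifit1 was at 0 in the 3 bFGF/EGF libraries, at 0.0937, 0.0491 and 0.128 FPKM in bFGF/BMP4 and at 0.417, 0.558 and 0.205 in BMP4. With 51 fragments in BMP4 the level was at least 5.85-fold higher than in bFGF/EGF, taking 3 fragments a library as the most that a count of 0 allows (adjusted p = 0.0010). The comparison of BMP4 with bFGF/BMP4 gave 1.33 ± 0.41 (adjusted p = 0.043), a call that was kept in 1 of the 9 fits with a library left out (1.08 to 1.64 over the 9, lowest without BMP4 replicate 2).

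The Ifitm genes encode membrane proteins that block virus entry. Ifitm2 was at 12.9, 10.7 and 9.24 FPKM in bFGF/EGF, 35.6, 34.1 and 37.3 in bFGF/BMP4 and 60.7, 94.0 and 68.9 in BMP4. It rose at both steps without overlap, with log2 fold changes of 1.71 ± 0.17 (adjusted p = 3.1e-05) and 2.74 ± 0.17 (adjusted p = 1.0e-06) against bFGF/EGF and 1.04 ± 0.17 (adjusted p = 0.0019) between BMP4 and bFGF/BMP4. The last value fell under 2-fold without BMP4 replicate 2 (0.86), on the TPM scale (0.96) and after quantile normalization (0.97), and 24.8% of the 50-base stretches of Ifitm2 occur in other annotated genes. Ifitm1 was at 0 in all 6 libraries with bFGF and at 0.732, 0.621 and 0.776 FPKM in BMP4, or 11 to 14 fragments. The BMP4 level was at least 4.34-fold higher than in bFGF/EGF (adjusted p = 4.0e-05) and at least 3.97-fold higher than in bFGF/BMP4 (adjusted p = 0.00017), with the floor of 3 fragments a library. Ifitm3, by contrast, was among the most abundant of the 39 in every group at 28.6 to 63.9 FPKM and was not called, with overlapping groups.

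Isg15, a ubiquitin-like protein that is joined to other proteins, had 0, 0.450 and 0 FPKM in bFGF/EGF, 0.708, 0.371 and 0.387 in bFGF/BMP4 and 0.788, 0.878 and 0.690 in BMP4. These values rest on 0 to 10 fragments a library, and bFGF/EGF replicate 2 lay within the bFGF/BMP4 range. With a pseudocount of 1 the calls of Isg15 in bFGF/BMP4 (0.39) and in BMP4 (0.66) against bFGF/EGF were lost. The log2 fold change in BMP4 was 2.32 ± 0.61 (adjusted p = 0.0085). That in bFGF/BMP4 (1.69 ± 0.61, adjusted p = 0.042) kept its call only without bFGF/EGF replicate 2 (2.51) and was lost in the other 8 fits with a library left out (1.28 to 1.83), with no filter and when only the compared groups entered the fit. Usp18, the protease that removes ISG15 and a brake on the type I receptor, was at 0.0211, 0.0907 and 0.0609 FPKM in bFGF/EGF, 0.245, 0.234 and 0.317 in bFGF/BMP4 and 2.34, 2.59 and 1.91 in BMP4. The groups did not overlap, with log2 fold changes of 1.23 ± 0.29 (adjusted p = 0.0055), 3.93 ± 0.29 (adjusted p = 2.5e-06) and, for BMP4 against bFGF/BMP4, 2.70 ± 0.29 (adjusted p = 0.00013). The bFGF/EGF libraries held 1 to 4 fragments of Usp18 and the BMP4 libraries 88 to 117. The first of the 3 calls was lost after quantile normalization (0.83) and with a pseudocount of 1 (0.26).

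**Figure D3:**
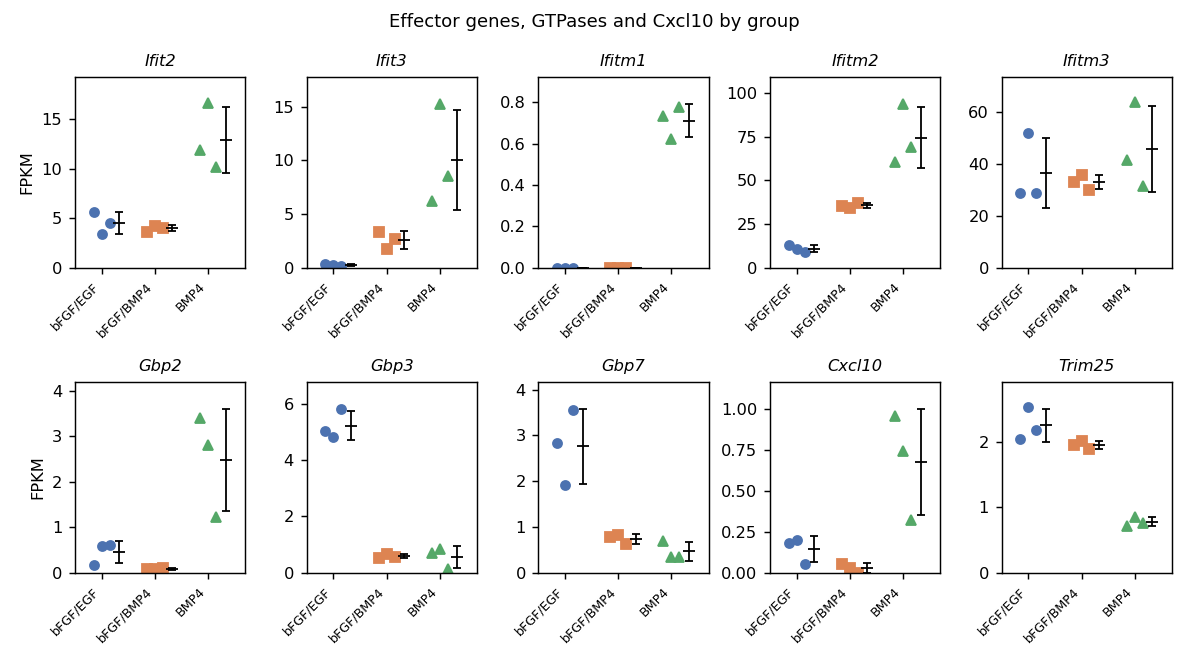
FPKM (vertical axes, each from 0) of 10 effector, GTPase and chemokine genes in the 3 groups, with points for the 3 libraries of each group and the mean ± SD beside them. Ifit2, Ifitm1, Gbp2 and Cxcl10 are highest in BMP4, Ifitm3 overlaps across groups, Gbp3 and Gbp7 are highest in bFGF/EGF and Trim25 is lowest in BMP4.

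A further 4 effectors, Ifi27, Lgals3bp, Ifi35 and Parp14, were higher in both BMP4 groups and not called between them. Ifi27, a small interferon-induced membrane protein, was abundant, with 9.22, 10.7 and 9.26 FPKM in bFGF/EGF, 30.4, 32.0 and 28.8 in bFGF/BMP4 and 45.6, 62.3 and 43.4 in BMP4. Its groups did not overlap, and the log2 fold changes were 1.64 ± 0.14 (adjusted p = 1.3e-05) and 2.35 ± 0.14 (adjusted p = 8.6e-07). Lgals3bp, a secreted galectin-binding glycoprotein, was at 1.40, 1.49 and 1.85 FPKM in bFGF/EGF, 5.36, 5.79 and 6.11 in bFGF/BMP4 and 7.90, 6.79 and 6.41 in BMP4. It separated bFGF/EGF from the BMP4-treated libraries by 1.81 ± 0.15 (adjusted p = 8.6e-06) and 2.09 ± 0.15 (adjusted p = 2.3e-06). Ifi35, an interferon-induced leucine zipper protein, was at 0.136, 0.256 and 0.328 FPKM in bFGF/EGF, 2.52, 1.21 and 2.13 in bFGF/BMP4 and 2.00, 2.79 and 2.67 in BMP4, with the lowest BMP4-treated library still above the highest without BMP4. Its log2 fold changes were 2.58 ± 0.32 (adjusted p = 0.00011) and 2.95 ± 0.32 (adjusted p = 3.3e-05), but 16.2% of its exon bases overlap Vat1 on the other strand, a gene with a mean of 40.1 FPKM.

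Parp14, an ADP-ribosyltransferase, was at 0.164, 0.0136 and 0.116 FPKM in bFGF/EGF, 0.461, 0.329 and 0.358 in bFGF/BMP4 and 0.543, 0.557 and 0.508 in BMP4. The low bFGF/EGF values, of 2 to 26 fragments, did not reach the others, with log2 fold changes of 1.36 ± 0.36 (adjusted p = 0.011) and 1.77 ± 0.36 (adjusted p = 0.0022). After quantile normalization the former was just short of 2-fold (0.96), and with a pseudocount of 1 both calls were lost (0.33 and 0.49). Trim25, the ubiquitin ligase that activates the RNA sensor RIG-I, was the only effector called lower, at 2.04, 2.53 and 2.17 FPKM in bFGF/EGF, 1.95, 2.01 and 1.89 in bFGF/BMP4 and 0.717, 0.848 and 0.759 in BMP4. The 3 BMP4 libraries were well below the other 6, by -1.42 ± 0.17 (adjusted p = 6.8e-05) against bFGF/EGF and -1.23 ± 0.17 (adjusted p = 0.00066) against bFGF/BMP4 on the log2 scale, while bFGF/BMP4 and bFGF/EGF differed by -0.19 ± 0.17 (adjusted p = 0.39). With a pseudocount of 1 both Trim25 calls fell short of 2-fold (-0.87 against bFGF/EGF and -0.73 against bFGF/BMP4). Of the effectors tested, Ifitm3, Bst2, Rsad2 and Ifih1 were called in no comparison, with Bst2 at 0.815 to 5.81 FPKM and Rsad2 and Ifih1 at no more than 0.330 FPKM in any library. Oasl2 (0 to 0.184 FPKM) and Xaf1 (0 to 0.289 FPKM) were not tested, and their fragments numbered 37 and 40 in BMP4 compared with 6 and 3 in bFGF/BMP4.

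The guanylate-binding proteins (GBPs), GTPases that attack vacuoles of pathogens, split by gene. Of the 3 GBP genes and Cxcl10, 3 were lower in bFGF/BMP4 than in bFGF/EGF (14.1% of all genes tested). In BMP4, 2 were higher (21.3%) and 2 lower (15.4%) than in bFGF/EGF, and 2 were higher than in bFGF/BMP4 (8.41%). Gbp3 was at 5.04, 4.84 and 5.82 FPKM in bFGF/EGF, 0.534, 0.659 and 0.562 in bFGF/BMP4 and 0.698, 0.851 and 0.130 in BMP4. The bFGF/EGF libraries were the 3 highest by a wide margin, and BMP4 replicate 3 was the lowest library. The log2 fold changes were -2.96 ± 0.45 (adjusted p = 0.00042) and -3.25 ± 0.45 (adjusted p = 0.00018), the latter -2.61 without BMP4 replicate 3. Gbp7 was at 2.84, 1.91 and 3.55 FPKM in bFGF/EGF, 0.787, 0.813 and 0.618 in bFGF/BMP4 and 0.702, 0.352 and 0.346 in BMP4, lower than in bFGF/EGF in all 6 BMP4-treated libraries, with -1.74 ± 0.31 (adjusted p = 0.0011) and -2.35 ± 0.31 (adjusted p = 0.00012).

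Gbp2 was at 0.164, 0.578 and 0.607 FPKM in bFGF/EGF, 0.0742, 0.0777 and 0.108 in bFGF/BMP4 and 3.40, 2.80 and 1.23 in BMP4. The groups did not overlap, and bFGF/EGF lay between the BMP4 groups. Gbp2 was higher in BMP4 by 2.25 ± 0.47 (adjusted p = 0.0023) against bFGF/EGF and by 3.68 ± 0.47 (adjusted p = 0.00037) against bFGF/BMP4. The lower level in bFGF/BMP4 (-1.43 ± 0.47, adjusted p = 0.028) rests on 3 or 4 fragments a library and was no longer called without bFGF/EGF replicate 2 (-1.21) or 3 (-1.18), or without bFGF/BMP4 replicate 1 (-1.38), 2 (-1.40) or 3 (-1.51), nor with no filter. Cxcl10, the chemokine that draws activated T cells, was at 0.183, 0.197 and 0.0503 FPKM in bFGF/EGF, at 0.0553, 0.0289 and 0 in bFGF/BMP4 and at 0.957, 0.740 and 0.323 in BMP4. Again BMP4 was highest, with 74 fragments over its 3 libraries compared with 16 in bFGF/EGF and 3 in bFGF/BMP4. The log2 fold change was 1.63 ± 0.46 (adjusted p = 0.012) against bFGF/EGF, a call lost without BMP4 replicate 1 (1.36) and after quantile normalization (1.16), and 5.91% of the exon bases of Cxcl10 overlap Art3 on the other strand, a gene with a mean of 2.94 FPKM. Against bFGF/BMP4 the ratio of fragment numbers, scaled for depth, was 23.2 (95% interval 7.65 to 115, counting error only, adjusted p = 0.0030). Iigp1, an immunity-related GTPase, had 0 to 8 fragments a library and was not tested.

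**Figure D4:**
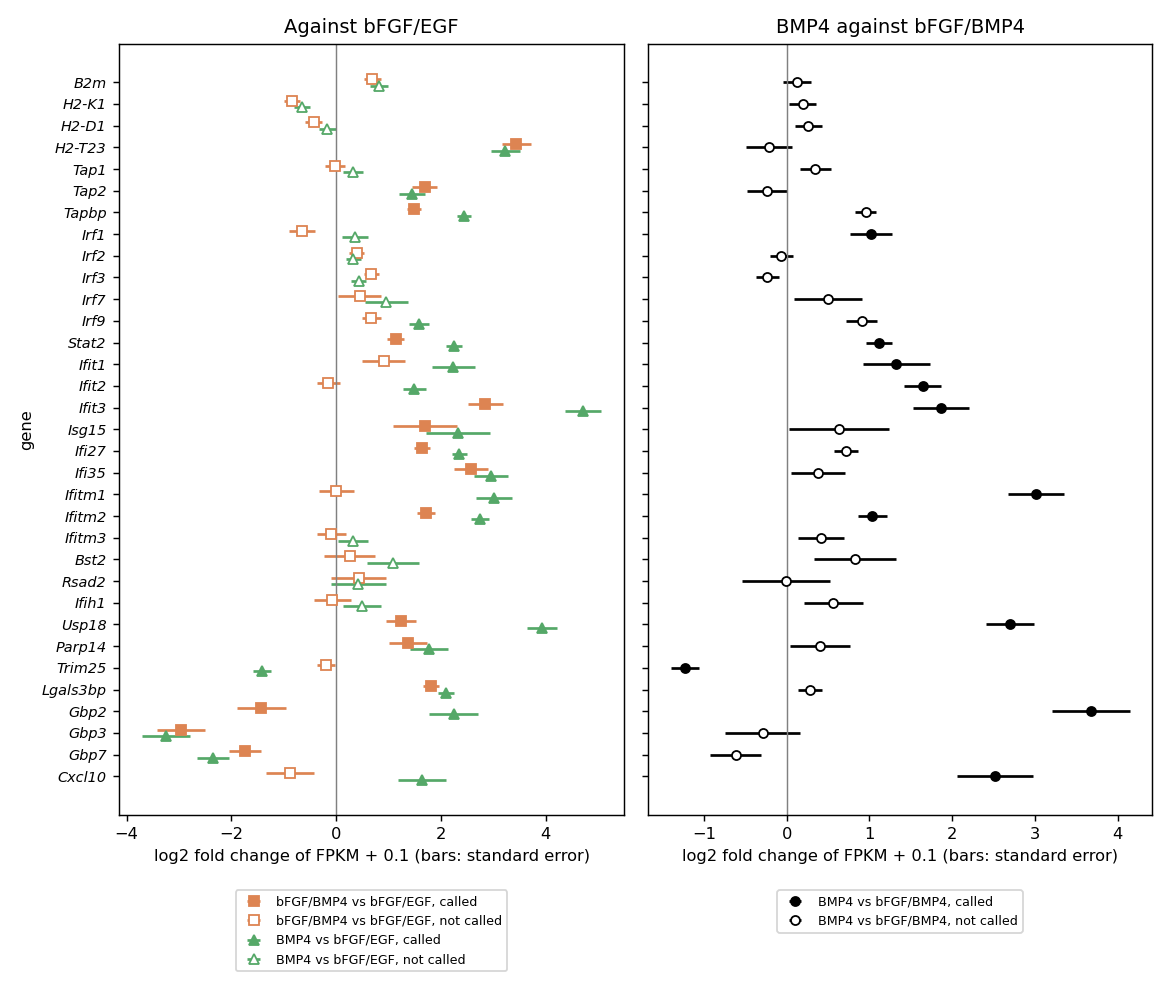
Log2 fold change of FPKM + 0.1 (horizontal axes) with its standard error for the 33 tested genes, against bFGF/EGF on the left and between BMP4 and bFGF/BMP4 on the right, where filled symbols are called and open symbols are not. For most genes called on the left the BMP4 triangle lies farther from 0 than the bFGF/BMP4 square, and on the right Gbp2, Ifitm1, Usp18 and Cxcl10 lie farthest above 0. The values of Ifit1, Ifitm1, Isg15 and Cxcl10 depend on the pseudocount, since libraries of these genes were at 0, and those of other low genes depend on it as well.

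Several of the genes lie beside others of their family. The 6 class I genes on chromosome 17 (GRCm39) span 2211 kb from 34134873 to 36345571, and in this region Tapbp (34134873 to 34148267), Tap2 (34422501 to 34435829) and H2-T23 (36340229 to 36345571) were higher in both BMP4 groups, whereas H2-K1 (34214987 to 34219321) had its 3 highest values in bFGF/EGF and H2-D1 (35481691 to 35486475) was not called. On chromosome 19 Ifit2, Ifit3 and Ifit1 lie within 104 kb from 34527932 to 34632174, and all 3 were called higher in BMP4 than in either other group, while in bFGF/BMP4 against bFGF/EGF the call was made for Ifit3 and not for the other two. The fit does not test whether the changes of neighbours differ. On chromosome 7 Ifitm2 (140534738 to 140536228), Ifitm1 (140546316 to 140549743) and Ifitm3 (140589499 to 140591282) lie within 56.5 kb, and their levels in bFGF/BMP4 ranged from 0 for Ifitm1 to 34.1 to 37.3 FPKM for Ifitm2. The GBP genes lie within 108 kb on chromosome 3 from 142236044 to 142343779, in the order Gbp7, Gbp3 and Gbp2, with Gbp2 higher and the other two lower in BMP4 than in bFGF/EGF.

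The BMP4 groups share BMP4 and the 6 days of culture and differ in bFGF. Called higher in BMP4 were 2 of 6 tested transcription factors and 6 of 16 effectors, beside 8.41% of all genes tested. Of the tested GBP genes and Cxcl10, 2 of 4 were called higher. Among the effectors 1 was called lower, beside 5.14% of all genes. The 10 genes higher in BMP4 were Irf1, Stat2, Ifit1, Ifit2, Ifit3, Ifitm1, Ifitm2, Usp18, Gbp2 and Cxcl10, and Trim25 was lower. Of these, Stat2, Ifit3, Ifitm2 and Usp18 were called higher in all 3 comparisons, for which the share over all genes was not computed. None of the 7 tested class I genes was called between BMP4 and bFGF/BMP4, where their log2 fold changes ran from -0.24 for Tap2 to 0.95 for Tapbp.

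Of the receptors, kinases and regulators that carry the interferon signal, 14 of 15 were tested. Of these 1 was higher and 2 lower in bFGF/BMP4 than in bFGF/EGF, beside 16.5% and 14.1% of all genes tested. In BMP4, 3 were higher (21.3% of all genes) and 2 lower (15.4%) than in bFGF/EGF, and 1 was higher than in bFGF/BMP4 (8.41%). The type I receptor subunits were present in all groups: Ifnar1 had means of 19.8 ± 1.05 FPKM (SD, n = 3) without BMP4, 13.1 ± 1.23 FPKM with bFGF/BMP4 and 10.9 ± 0.973 FPKM with BMP4 alone, and Ifnar2 had means of 4.78 ± 0.669 FPKM (SD, n = 3) without BMP4, 3.65 ± 0.580 FPKM with bFGF/BMP4 and 4.26 ± 0.154 FPKM with BMP4 alone. Neither was called, though Ifnar1 was lower by the adjusted p alone (-0.59, adjusted p = 0.0020, and -0.86, adjusted p = 0.00015). The subunits of the interferon gamma receptor moved in opposite directions. Ifngr1, the ligand-binding chain, had means of 7.19 ± 0.587 FPKM (SD, n = 3) without BMP4, 22.6 ± 2.32 FPKM with bFGF/BMP4 and 22.8 ± 2.05 FPKM with BMP4 alone, with log2 fold changes of 1.64 (adjusted p = 4.0e-06) and 1.65 (adjusted p = 2.5e-06). Ifngr2, the signalling chain, had means of 10.7 ± 1.78 FPKM (SD, n = 3) without BMP4, 2.94 ± 0.239 FPKM with bFGF/BMP4 and 4.45 ± 0.319 FPKM with BMP4 alone, with log2 fold changes of -1.82 (adjusted p = 8.3e-06) and -1.24 (adjusted p = 7.1e-05). Socs3, a feedback inhibitor of JAK kinases, had means of 2.69 ± 0.704 FPKM (SD, n = 3) without BMP4, 0.622 ± 0.0318 FPKM with bFGF/BMP4 and 3.14 ± 0.874 FPKM with BMP4 alone, lower in bFGF/BMP4 than in bFGF/EGF (-1.92, adjusted p = 0.00020) and than in BMP4 (2.13 for BMP4 against bFGF/BMP4, adjusted p = 0.00030).

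Transcripts of the 9 ligand genes looked at were nearly absent. Of these, 7 (Ifng, Ifna2, Ifna4, Ifnk, Ifnl2, Ifnl3 and Il27, the last not an interferon) were at 0 in all libraries. The remaining genes, Ifnb1 and Ifne, had 2 fragments and 1 fragment in BMP4 and none elsewhere. Ifna genes other than Ifna2 and Ifna4 were not looked at. Ifng shares 25.9% of its exon bases with Gm49751 on the same strand, which limits its value of 0. A ligand expressed at a low level or for a short time would not have been detectable at this depth.

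The sensors of foreign or misplaced nucleic acid trigger interferon production. These sensors, with their adaptors and other genes of the same pathways, made a list of 20 genes, of which 15 were tested. Compared with bFGF/EGF, 6 were called higher and 2 lower in bFGF/BMP4, where the shares over all genes tested were 16.5% and 14.1%. In BMP4 also 6 were called higher and 2 lower, with shares over all genes of 21.3% and 15.4%, but Traf3 was among the 6 in bFGF/BMP4 alone and Ikbke in BMP4 alone. Between BMP4 and bFGF/BMP4, 3 were lower in BMP4 (5.14% of all genes). Tlr3, the endosomal receptor for double-stranded RNA, had means of 0.705 ± 0.236 FPKM (SD, n = 3) without BMP4, 16.0 ± 1.57 FPKM with bFGF/BMP4 and 17.4 ± 0.800 FPKM with BMP4 alone, which is 4.37 (adjusted p = 2.4e-07) and 4.48 (adjusted p = 1.5e-07) on the log2 scale. Sting1, the adaptor of the cytosolic DNA pathway, fell at both steps, with means of 7.24 ± 0.600 FPKM (SD, n = 3) without BMP4, 1.16 ± 0.245 FPKM with bFGF/BMP4 and 0.0671 ± 0.0226 FPKM with BMP4 alone and log2 fold changes of -2.56 (adjusted p = 1.3e-05), -5.46 (adjusted p = 8.6e-08) and, between the BMP4 groups, -2.91 (adjusted p = 2.0e-05). Cgas, the DNA sensor upstream of it and chosen after its values were seen, had means of 1.58 ± 0.236 FPKM (SD, n = 3) without BMP4, 0.444 ± 0.111 FPKM with bFGF/BMP4 and 0.0593 ± 0.0393 FPKM with BMP4 alone, with -1.63, -3.42 and -1.78 in the same comparisons (adjusted p = 0.0016, 9.8e-06 and 0.0024). Traf3, a signalling adaptor, stood out in bFGF/BMP4, with means of 20.2 ± 1.28 FPKM (SD, n = 3) without BMP4, 60.1 ± 10.9 FPKM with bFGF/BMP4 and 26.0 ± 4.58 FPKM with BMP4 alone and a log2 fold change of 1.55 (adjusted p = 4.5e-05) there and of -1.20 (adjusted p = 0.00064) in BMP4 against bFGF/BMP4.

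Among 60 other interferon-stimulated genes, only 30 had a mean of at least 0.1 FPKM. Compared with bFGF/EGF, 7 of the 30 were higher and 3 lower in bFGF/BMP4, beside 16.5% and 14.1% of all genes tested. In BMP4, 11 were higher (21.3% of all genes) and 2 lower (15.4%). Between BMP4 and bFGF/BMP4, 3 were higher in BMP4 (8.41% of all genes). The medians in these comparisons were 0.67, 0.82 and 0.15 on the log2 scale. Ifit3b, the near copy of Ifit3, had means of 0 ± 0 FPKM (SD, n = 3) without BMP4, 1.59 ± 0.590 FPKM with bFGF/BMP4 and 3.63 ± 1.35 FPKM with BMP4 alone, at least 17.8-fold and at least 40.7-fold higher than in bFGF/EGF with the floor of 3 fragments a library (adjusted p = 9.9e-06 and 1.3e-06). Parp10, a relative of Parp14, had means of 0.260 ± 0.118 FPKM (SD, n = 3) without BMP4, 1.87 ± 0.462 FPKM with bFGF/BMP4 and 1.96 ± 0.137 FPKM with BMP4 alone, with 2.49 (adjusted p = 8.3e-05) and 2.57 (adjusted p = 4.9e-05). Ube2l6, the enzyme that conjugates ISG15, had means of 3.64 ± 0.809 FPKM (SD, n = 3) without BMP4, 1.75 ± 0.518 FPKM with bFGF/BMP4 and 3.77 ± 1.08 FPKM with BMP4 alone and was higher in BMP4 than in bFGF/BMP4 by 1.07 (adjusted p = 0.020), a call lost without bFGF/BMP4 replicate 1 (0.81) or BMP4 replicate 2 (0.86).

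The remaining class I genes and the genes of peptide supply, such as the immunoproteasome and the chaperones of class I assembly, mostly did not change by 2-fold. Of 18 tested out of 25, 4 were higher and 1 lower in bFGF/BMP4 than in bFGF/EGF, beside 16.5% and 14.1% of all genes tested. In BMP4, 3 were higher (21.3% of all genes) and 1 lower (15.4%), and none was called between BMP4 and bFGF/BMP4. The 4 higher in bFGF/BMP4 were Fcgrt, Mr1, Hfe and Tapbpl. Tapbpl, a relative of tapasin that was chosen after its values were seen, had means of 1.02 ± 0.0996 FPKM (SD, n = 3) without BMP4, 2.31 ± 0.582 FPKM with bFGF/BMP4 and 1.91 ± 0.591 FPKM with BMP4 alone, with 1.08 (adjusted p = 0.0052) and 0.82 (adjusted p = 0.019), of which the latter was not called. Fcgrt, the neonatal Fc receptor that recycles IgG and albumin and pairs with beta-2-microglobulin, had means of 0.175 ± 0.163 FPKM (SD, n = 3) without BMP4, 21.5 ± 5.77 FPKM with bFGF/BMP4 and 33.2 ± 4.83 FPKM with BMP4 alone, or 6.42 (adjusted p = 5.8e-07) and 7.07 (adjusted p = 2.5e-07) on the log2 scale. Mr1, which presents vitamin B metabolites to MAIT cells, had means of 0.128 ± 0.0284 FPKM (SD, n = 3) without BMP4, 3.35 ± 0.357 FPKM with bFGF/BMP4 and 2.96 ± 0.639 FPKM with BMP4 alone, or 3.92 (adjusted p = 6.8e-07) and 3.73 (adjusted p = 6.6e-07).

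**Figure D5:**
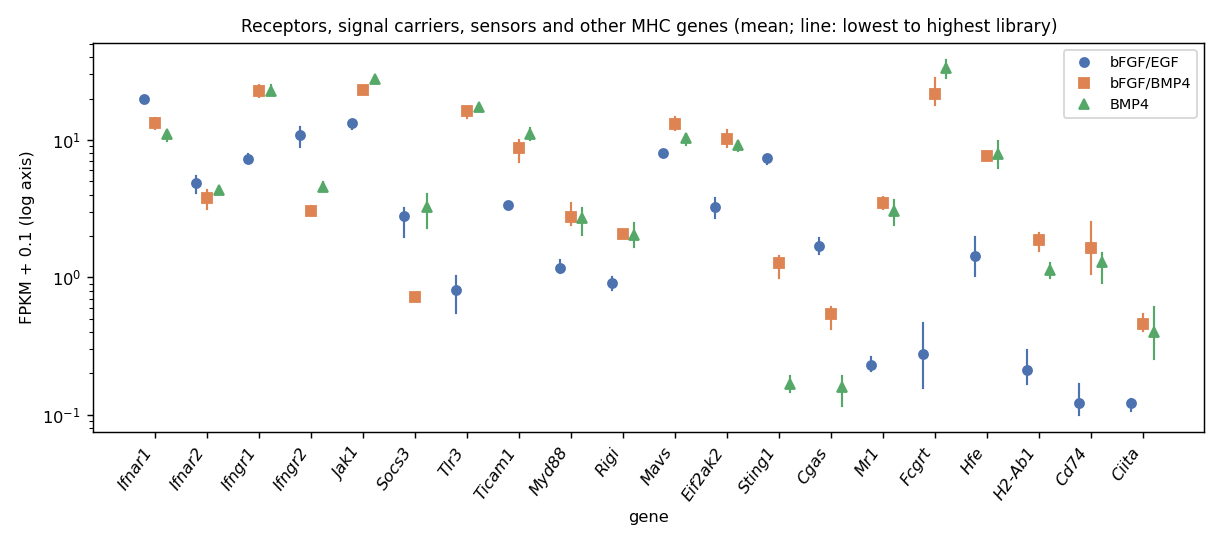
Mean FPKM + 0.1 (logarithmic vertical axis) of 20 receptor, signalling, sensor and other MHC genes in the 3 groups, with lines from the lowest to the highest library. The genes were chosen after their values were seen. Tlr3, Mr1, Fcgrt and the class II genes are lowest in bFGF/EGF, and Sting1 and Cgas fall from bFGF/EGF to bFGF/BMP4 to BMP4.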

How the data were processed

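The members and gene lists were chosen with earlier results of these data known. The FPKM values deposited by the authors were used. The paper states that raw counts are in its supplement, and those counts were not used here. According to the paper and the submitters' processing notes, the authors used fastp 0.19.7, HISAT2 2.0.5 (mm39) and featureCounts 1.5.0-p3. The annotation release, the strand setting and the FPKM program are not given in the sources used here. FPKM is relative to each library's total, so a change in a few abundant genes shifts all others. Whole fragment numbers were rebuilt for all 30860 genes above 0, and 54749 of 55704 identifiers were found in GENCODE vM39 (GRCm39), which gave positions and overlaps. Gene lengths implied by the rebuilt numbers were within 1 base of the annotated exon length for only 6.99% of the more abundant genes. The library sizes implied by the FPKM values were 0.919 to 1.07 times the rebuilt totals.

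limma 3.58.1 (R 4.3.3) with a trend was fitted to log2(FPKM + 0.1) of genes with a mean of at least 0.1 FPKM, all 9 libraries in 3 groups, with Benjamini-Hochberg adjustment, an adjusted p of at most 0.05 and a fold of at least 2. The fitted fold understates changes of low genes, and p-values measure the spread between 3 libraries a group. A group at 0 was taken at 3 fragments a library, and intervals are exact 95% counting intervals. The fit was tested on simulated data. Also tried were other low-value filters, a pseudocount of 1, other scalings, limma-voom with TMM factors on the rebuilt fragment numbers, a replicate block, fewer samples, no fold threshold, and each library left out. Named were members called in any comparison, the transcription factors, Nlrc5 and class I structural genes, and, of each other list, the 2 largest calls per comparison with a mean of at least 1 FPKM plus the interferon receptors, except 1 signalling gene that is not reported here and was left out of its list. Motifs were searched on both strands in RefSeq promoters of build GRCm38.p6, a different build from that of the positions.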

Additional observations from a re-analysis of the deposited data

Results flagged for a closer look

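Cxcl10, Gbp2, Ifit2 and Irf1 had fitted changes from bFGF/EGF of opposite sign in the BMP4 groups, below 0 in bFGF/BMP4 and above 0 in BMP4, and the difference between these groups was itself called by limma (Benjamini-Hochberg over 20207 genes). For Gbp2, whose changes were both called, the log2 difference of BMP4 from bFGF/BMP4 was 3.68 ± 0.47 (adjusted p = 0.00037). For Cxcl10 it was 2.52 ± 0.46 (adjusted p = 0.0030), with a change of -0.88 ± 0.46 in bFGF/BMP4 that was not called. For Ifit2 it was 1.64 ± 0.22 (adjusted p = 0.00050), with -0.15 ± 0.22 in bFGF/BMP4, a value smaller than its error. For Irf1 it was 1.02 ± 0.25 (adjusted p = 0.016), with -0.66 ± 0.25 in bFGF/BMP4 and 0.36 ± 0.25 in BMP4, neither called. All 3 libraries of BMP4 were above all 3 of bFGF/BMP4 for each of these 4 genes.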

How the results depend on the processing

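In bFGF/BMP4 compared with bFGF/EGF the median log2 fold change of the 33 tested genes (0.45) was 0.13 with a pseudocount of 1, 0.25 with no filter, 0.34 after quantile normalization and 0.64 by limma-voom on fragment numbers. In BMP4 compared with bFGF/EGF (1.49) it was 0.66, 1.08, 1.21 and 1.61 in the same order, and 1.26 with a mean of at least 1 FPKM. Between BMP4 and bFGF/BMP4 (0.50) it was 0.26 with a pseudocount of 1, 0.36 with a mean of at least 1 FPKM, 0.35 after quantile normalization and 0.67 by limma-voom, and 10 genes called higher became 5 and 6 with that pseudocount and that minimum, while 1 called lower became 0 with the pseudocount. A larger pseudocount shrinks the changes of low genes by construction. With a library left out the medians were 0.39 to 0.61, 1.36 to 1.64 and 0.42 to 0.59, the genes called higher 11 to 12, 17 to 19 and 8 to 10, and those called lower 2 to 3, 3 and 1. Of 47 calls, 18 were lost with a pseudocount of 1, 8 after quantile normalization, 2 each on the TPM scale, with no filter and with only the compared groups in the fit, and 1 to 4 with a library left out. Those lost with the pseudocount included Tap2 (0.999), Ifit1 (0.47), Ifitm1 (0.77) and Cxcl10 (0.53) in BMP4 against bFGF/EGF. Also among them were Irf1 (0.58), Ifit1 (0.35), Ifitm1 (0.77) and Cxcl10 (0.68) in BMP4 against bFGF/BMP4, and Gbp2 (-0.40) in bFGF/BMP4 against bFGF/EGF. Quantile normalization moved the median of all genes tested in BMP4 against bFGF/EGF from 0.10 to -0.03. Signs turned for values that were not called: Irf7 in bFGF/BMP4 against bFGF/EGF after quantile normalization (-0.010), and in BMP4 against bFGF/BMP4 with a library left out B2m (-0.045 to 0.25) and Irf2 (-0.14 to 0.023), both without BMP4 replicate 2, and H2-T23 (-0.44 to 0.0038), without bFGF/BMP4 replicate 1. Over single genes and settings 1609 values kept their direction and their side of the threshold, 79 lost and 2 gained a call, and 4 turned. Libraries with the same replicate number did not deviate together, with correlations of deviations between groups of -0.084 to 0.12 that were not all over 0.1, and the replicate block removed 1 call, that of Ifit1 in BMP4 against bFGF/BMP4. Where those causes are not named they were not tested, and genes under about 10 fragments a library are limited by depth.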

Other observations

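Genes of MHC class II, which present peptides to helper T cells and are best known from immune cells, were also higher in both BMP4 groups. Of 10 tested out of 13, 7 were called higher in bFGF/BMP4 than in bFGF/EGF (16.5% of all genes tested) and 7 in BMP4 (21.3%). Between the BMP4 groups 1 was lower in BMP4 (5.14%). By the rule for named genes, Rfxank and H2-DMa are given. Rfxank, a subunit of the factor that binds class II promoters, had means of 2.66 ± 0.130 FPKM (SD, n = 3) without BMP4, 21.6 ± 4.18 FPKM with bFGF/BMP4 and 6.63 ± 1.98 FPKM with BMP4 alone, with log2 fold changes of 2.95 (adjusted p = 3.0e-06, limma with Benjamini-Hochberg) and 1.25 (adjusted p = 0.00062), and of -1.71 (adjusted p = 0.00030) in BMP4 against bFGF/BMP4. H2-DMa, a chaperone of class II loading, had means of 1.60 ± 0.121 FPKM (SD, n = 3) without BMP4, 3.35 ± 0.578 FPKM with bFGF/BMP4 and 2.41 ± 0.354 FPKM with BMP4 alone and was called in bFGF/BMP4 (1.01, adjusted p = 0.0014), a call lost without bFGF/EGF replicate 3 (0.95) or bFGF/BMP4 replicates 2 (0.95) or 3 (0.92) and on every other scaling tried (0.89 to 1.00).

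The invariant chain Cd74, the class II chain H2-Ab1 and the transactivator Ciita were chosen after their values were seen. Cd74 had means of 0.0225 ± 0.0389 FPKM (SD, n = 3) without BMP4, 1.55 ± 0.778 FPKM with bFGF/BMP4 and 1.19 ± 0.334 FPKM with BMP4 alone, or 59 and 49 fragments in the BMP4 groups compared with 1 in bFGF/EGF. H2-Ab1 had means of 0.111 ± 0.0748 FPKM (SD, n = 3) without BMP4, 1.78 ± 0.295 FPKM with bFGF/BMP4 and 1.03 ± 0.146 FPKM with BMP4 alone, with 3.20 (adjusted p = 1.6e-05) and 2.47 (adjusted p = 6.4e-05). Ciita had means of 0.0208 ± 0.0128 FPKM (SD, n = 3) without BMP4, 0.357 ± 0.0701 FPKM with bFGF/BMP4 and 0.300 ± 0.181 FPKM with BMP4 alone, with 1.92 (adjusted p = 0.0025) and 1.64 (adjusted p = 0.0052). Of the 16 markers of microglia and macrophages, C1qa, C1qb, C1qc, Tyrobp and Itgam (with the overlap given above) were at 0 in all 9 libraries. Of the 16, 4 were tested. Among the 4, Tmem119 was higher in both BMP4 groups like the class II genes, with 27 fragments in bFGF/BMP4 and 152 in BMP4 compared with 0 in bFGF/EGF, while Cd68 (means of 2.22 FPKM without BMP4, 0.344 with bFGF/BMP4 and 1.32 with BMP4 alone) and P2ry12 (0.561, 0.153 and 0.225 FPKM in the same order) had their highest means in bFGF/EGF. The part of such cells in the class II levels was not tested.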
